A study of Mus musculus with 8 samples.

Results

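The change in gene expression over the first hours of the light phase was followed in crypts of the mouse colon, by comparing libraries collected at zeitgeber time (ZT) 6 h with libraries collected at ZT0, when the light phase begins. All genes with a mean of at least 10 normalised counts over the 8 libraries of the series were taken, which gave 13503 of the 14247 genes in the deposited table. No measured difference between the time points entered that choice. The series holds 2 libraries at each of ZT0, ZT6, ZT12 and ZT18. All libraries were labelled WT, and by their labels the groups differ in the time of collection alone. Per the study's methods, mice of C57BL/6 background aged 2 to 4 months were kept under 12 h of light and 12 h of dark with food and water at will, and crypts were freed from the colon with 2 mM EDTA and scraping. The study's text calls the mice of these libraries wild-type. Nothing in the labels says that the libraries of a time point came from separate animals, so the p-values measure only the spread between these samples.

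Mice rest in the light phase, and clock genes of peripheral tissues turn over quickly in these hours. The clock is a loop of transcription in which BMAL1 (gene Arntl) and CLOCK bind E-boxes and activate the Per and Cry genes, whose products then repress both activators. A second loop joins the first through the REV-ERB repressors (Nr1d1 and Nr1d2) and the ROR activators, which compete for the same elements, among others at Arntl. The PAR bZIP factors (Dbp, Tef and Hlf) activate genes through D-boxes, where the repressor NFIL3 competes with them. In the intestinal epithelium this clock is known to time digestion, transport, cell division and defence.

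Total recovered reads were 17522075 and 19695953 in ZT0 replicates 1 and 2, and 15769362 and 17492669 in ZT6 replicates 1 and 2. The normalised count used throughout is the read count of a gene divided by 1 size factor per library. Epithelial markers did not set the libraries apart, and their summed level lay between 324321 and 351837 at ZT0 and between 340907 and 381896 at ZT6. The ZT0 libraries were less alike than either was to any ZT6 library. Taken over genes, not over replicates, Pearson's r on the log2 scale was 0.919 for the ZT0 pair and 0.975 for the ZT6 pair, and from 0.937 to 0.954 for the 4 pairs of a ZT0 with a ZT6 library. Markers of B and plasma cells, myeloid cells and fibroblasts were high in ZT0 replicate 2, whereas endothelial markers (5 of 8 tested) were not, with a sum of 236 there, 181 in replicate 1 and 278 and 292 at ZT6. The 9 of 10 B and plasma cell markers that were tested summed to 3402 normalised counts there, against 219 in ZT0 replicate 1 and 324 and 200.2 at ZT6. Myeloid markers (9 of 10 tested) summed to 2705 in ZT0 replicate 2, against 909.8 in replicate 1 and 781 and 767 at ZT6. Fibroblast markers (7 of 8 tested) summed to 686, against 79.5, 30.8 and 106. Smooth muscle markers (6 of 8 tested) were low but also highest in ZT0 replicate 2. They summed to 94.2 there, against 17.9 in ZT0 replicate 1 and 7.39 and 18.5 at ZT6. T cell markers (5 of 10 tested) were nearly absent from ZT0 replicate 1, with a sum of 2.98, and the defining marker Cd3g was at 0 there. The mitochondrial genome took 12.2% of the normalised counts in ZT0 replicate 1 and 19.8%, 19.2% and 19.4% in ZT0 replicate 2 and ZT6 replicates 1 and 2.

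Some genes were on in some libraries and off in others, and these were chosen after their values were seen. In all, 8 genes had no read in ZT0 replicate 1 and at least 50 normalised counts in ZT0 replicate 2 and both ZT6 libraries. Among them were Hoxb8 (0, 398, 166 and 214 in ZT0 replicates 1 and 2 and ZT6 replicates 1 and 2), Hoxb4 (0, 171, 65.3 and 89.2) and Hoxd4 (0, 246, 115 and 122), transcription factors that pattern the body axis. Slc51a, a subunit of the basolateral bile acid exporter, had 0, 795, 775 and 1073. Trim5 and Trim12a, neighbours on chromosome 7 from a family of antiviral genes, had no read in ZT0 replicate 1 and in both ZT6 libraries, whereas ZT0 replicate 2 had 199.6 and 826 normalised counts, and the other time points had 127 or more and 627 or more in each library. Ceacam2, a close relative of Ceacam1, had 21140 normalised counts in ZT0 replicate 2 and at most 198 in each of the other 7 libraries. The part of these differences in the results was not tested beyond fits that left out each library.

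**Figure D1:**
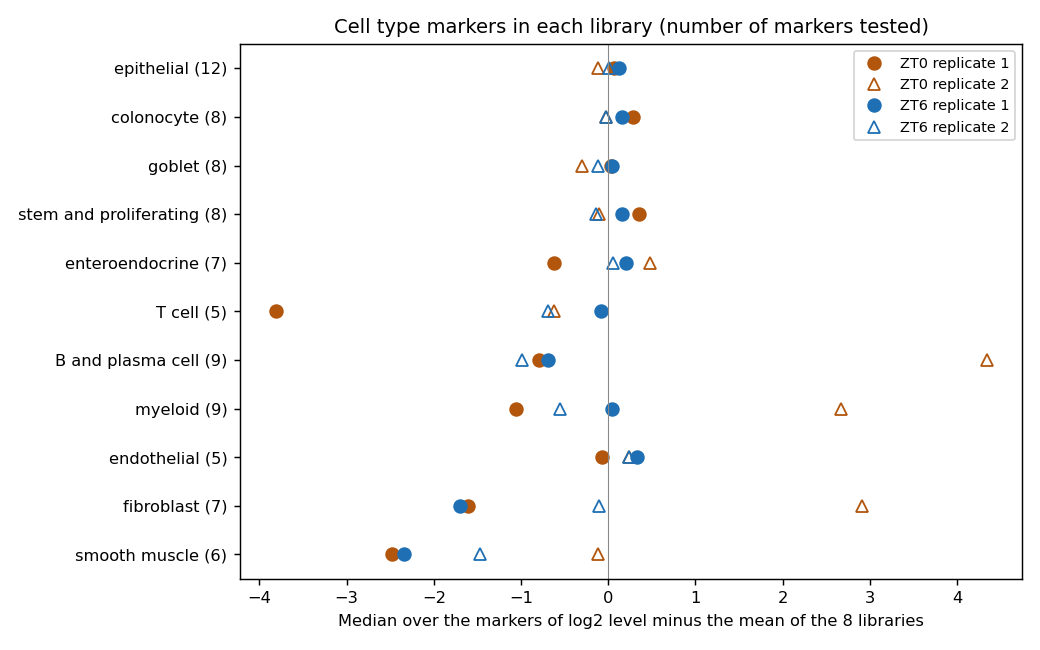
Median log2 level of the markers of each cell type in the 4 libraries of the step, relative to the mean of all 8 libraries (x axis, log2 units; y axis, cell type with the number of markers tested). ZT0 libraries are orange and ZT6 libraries blue, circles are replicate 1 and triangles replicate 2. ZT0 replicate 2 stands at 4.34 for B and plasma cells and ZT0 replicate 1 at -3.82 for T cells, whereas the epithelial markers lie between -0.12 and 0.12.

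Because clock genes led the comparison, the 250 bases before the start of transcription are shown for 4 of them, to let the reader see the E-box CACGTG and the D-box TTATGTAA (either strand, in capitals) where these letters occur. The starts and sequences are from RefSeq on build GRCm38.p6, and the sequences are written 5′ to 3′ on the strand of the gene. Dbp is shown as the gene with the lowest p-value, Cry1 as the gene that fell, and Ciart and Per3 as clock genes with several matches.
Dbp (chr7:45704997-45705246, plus strand): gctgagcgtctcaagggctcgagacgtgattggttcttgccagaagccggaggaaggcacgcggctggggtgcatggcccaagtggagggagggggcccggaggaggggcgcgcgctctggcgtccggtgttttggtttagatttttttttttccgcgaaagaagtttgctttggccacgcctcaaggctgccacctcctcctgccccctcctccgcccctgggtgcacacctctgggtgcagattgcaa
Cry1 (chr10:85185055-85185304, minus strand): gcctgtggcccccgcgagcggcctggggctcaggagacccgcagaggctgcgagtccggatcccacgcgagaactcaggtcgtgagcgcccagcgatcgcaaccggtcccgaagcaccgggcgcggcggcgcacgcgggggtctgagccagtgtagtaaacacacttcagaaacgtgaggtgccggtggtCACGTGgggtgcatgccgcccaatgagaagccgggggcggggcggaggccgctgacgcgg
Ciart (chr3:95882229-95882478, minus strand): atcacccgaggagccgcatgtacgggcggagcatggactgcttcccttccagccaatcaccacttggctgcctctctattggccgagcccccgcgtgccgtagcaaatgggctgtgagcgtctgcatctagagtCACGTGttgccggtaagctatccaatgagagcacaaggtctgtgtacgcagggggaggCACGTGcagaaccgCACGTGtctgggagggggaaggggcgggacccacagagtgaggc
Per3 (chr4:151044666-151044915, minus strand): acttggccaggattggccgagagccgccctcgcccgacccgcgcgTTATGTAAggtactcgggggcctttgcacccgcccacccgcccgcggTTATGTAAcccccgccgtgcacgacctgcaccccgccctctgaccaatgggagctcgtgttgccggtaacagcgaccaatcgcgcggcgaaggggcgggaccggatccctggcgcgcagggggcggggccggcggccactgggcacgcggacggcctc

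Cry1 held 1 E-box, whose first base lay 60 bases before the start. Ciart held 3, at 116, 58 and 44 bases before the start, and Per3 held 2 D-boxes, at 205 and 158. The window of Dbp held neither motif. The GENCODE annotation places the start of Dbp at 45705088, inside this window, so the window is not all upstream of that start. Windows were searched for 34 genes in all, from the genes that passed, the clock genes and the genes at the high and low ends that had a window in the table, and for none of the genes named only from a function list. Among these 34, CACGTG also occurred in the windows of Tef, Cipc and Per1, and in those of Msn and Zfp947, which are no clock genes. TTATGTAA occurred in that of Timeless. Neither was in the windows of Nr1d1, Nr1d2, Ddx60 or Arntl. These letters are not rare: CACGTG was present in 6.02% and TTATGTAA in 0.819% of all 32851 promoter windows of that length. The REV-ERB and ROR elements TAGGTCA and TGGGTCA were in 2.23% and 3.24%. Nfil3 held TAGGTCA and Ccdc116 held TGGGTCA in one of its windows. A match is a description of the letters and not a bound site.

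After 6 h of light, 6 genes passed the test (limma with Benjamini-Hochberg adjustment, adjusted p under 0.05), which is 0.0444% of the genes tested. Of these, 5 rose (0.037%) and 1 fell (0.00741%), and 4 are clock genes. Without the adjustment, 557 genes (4.13%) had a p under 0.05, 289 higher (2.14%) and 268 lower (1.98%) at ZT6. Libraries did not overlap between ZT0 and ZT6 for 5081 genes (37.6%), 2550 higher (18.9%) and 2531 lower (18.7%). The median log2 fold change of all genes was 0.01. Division by 1 size factor per library sets this median near 0, so a shift of the whole transcriptome cannot be seen on this scale. Log2 fold changes here are differences of log2(normalised count + 1) and understate the change of low genes.

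Dbp, the PAR bZIP activator of clock output (ENSMUSG00000059824, chromosome 7, 45705088 to 45710203, plus strand), had the largest log2 fold change of the 6. Its normalised counts were 26.8 and 21.5 in the ZT0 libraries and 482 and 361 in the ZT6 libraries. Both ZT6 libraries thus lay far above both ZT0 libraries, with a log2 fold change of 4.06 (SE 0.30, 95% interval 3.40 to 4.73, limma adjusted p 0.00288), or 16.7-fold. Dbp overlaps Sphk2 on the opposite strand. Both REV-ERB genes rose too. Nr1d1 (ENSMUSG00000020889, chromosome 11, 98767932 to 98775333, minus strand) went from 280.1 and 137 to 1829.5 and 1352 normalised counts, a log2 fold change of 2.998 (SE 0.34, limma adjusted p 0.0264). Every ZT6 library of Nr1d1 was above every ZT0 library, although ZT0 replicate 1 was well above ZT0 replicate 2. Nr1d1 overlaps Thra on the opposite strand. Nr1d2 (ENSMUSG00000021775, chromosome 14, 18204054 to 18239127, minus strand) had 283 and 226 at ZT0 and 1278 and 1322 at ZT6, with a log2 fold change of 2.36 (SE 0.21, limma adjusted p 0.00966).

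Cry1, which encodes a repressor of BMAL1 and CLOCK (ENSMUSG00000020038, chromosome 10, 85131700 to 85185064, minus strand), was the gene that fell. It had 935 and 863 normalised counts at ZT0 and 265 and 312 at ZT6. The groups were well separated, with a log2 fold change of -1.64 (SE 0.19, 95% interval -2.06 to -1.22, limma adjusted p 0.0264). The remaining 2 genes are not part of the clock. Ccdc116 (ENSMUSG00000022768, chromosome 16, 17139064 to 17147229, minus strand), a coiled-coil protein gene, had 137 and 146 normalised counts at ZT0 and 562 and 575 at ZT6. Its replicates were nearly equal and its log2 fold change was 2.00 (SE 0.22, limma adjusted p 0.0264). Ccdc116 overlaps Ydjc on the opposite strand, and strand use is not stated, so that reads of the pair cannot be told apart. Ddx60 (ENSMUSG00000037921, chromosome 8, 61928087 to 62038244, plus strand), an interferon-induced RNA helicase gene of antiviral defence, had 569 and 443 at ZT0 and 1422 and 1643 at ZT6. Both ZT6 libraries were above both ZT0 libraries, with a log2 fold change of 1.60 (SE 0.19, limma adjusted p 0.0264).

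These 6 calls depended on how the spread was estimated and on single libraries. DESeq2 on the recovered reads called 25 genes, including all 6, and edgeR called 5. No gene was called without the mean-variance trend, with only the 4 libraries of ZT0 and ZT6 in the fit, or without ZT0 replicate 2, ZT6 replicate 1 or ZT6 replicate 2, and 2 were called without either ZT12 library. In those 5 limma fits from 229 to 878 genes had an unadjusted p under 0.05. Over all 21 alternatives the log2 fold change of Nr1d1 ranged widest, from 2.49 to 3.51, that of Dbp from 3.86 to 4.27 and that of Cry1 from -1.76 to -1.52.

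**Figure D2:**
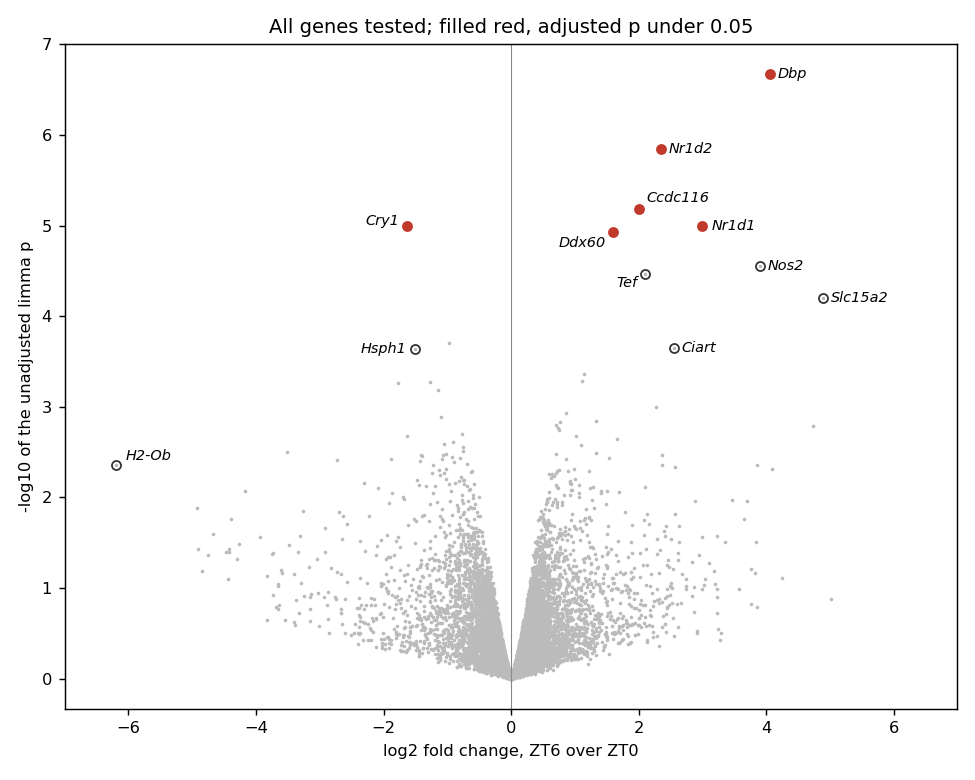
Log2 fold change from ZT0 to ZT6 (x axis, log2 units) against -log10 of the unadjusted limma p (y axis) for the 13503 genes tested, 1 point per gene. The 6 genes that passed are in red, and further genes described in the text are circled. Dbp lies highest, Cry1 is the only red point on the left, and H2-Ob combines a large negative value with a modest p-value.

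Within the clock, the groups of genes lay on different sides, and among the genes tested only Dbp, Nr1d1, Nr1d2 and Cry1 passed. The 3 activators were level or lower at ZT6. Arntl had 1597 and 1038 normalised counts at ZT0 and 679 and 557 at ZT6, a log2 fold change of -1.07 (SE 0.27, unadjusted p 0.00339, limma adjusted p 1). Npas2, the paralogue of Clock, was also lower without overlap (998 and 783 against 625 and 585, log2 fold change -0.55). Clock itself had 2315 and 1401 at ZT0 and 1798 and 1763 at ZT6, so that the ZT6 libraries lay between the ZT0 libraries, with a log2 fold change of -0.02 whose sign turned without ZT0 replicate 1.

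Among the period and cryptochrome genes, Per3 had 238 and 127 normalised counts at ZT0 and 457 and 419.9 at ZT6 (log2 fold change 1.33, SE 0.29, limma adjusted p 0.904), and it overlaps Camta1 on the same strand. Per2 was lower without overlap, with 487 and 716 against 411 and 302 (log2 fold change -0.74). Per1 (392.3 and 265 against 338 and 403) and Cry2 (462 and 658 against 509 and 561) overlapped, and their log2 fold changes of 0.19 and -0.04 turned sign when a library was left out. The 2 period genes with non-overlapping libraries thus lay on opposite sides of 0.

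Rora, which encodes an activator that competes with REV-ERB, was close to the limit of 3 reads in a library, with 10.9 and 20.52 at ZT0 and 3.70 and 9.79 at ZT6. Of the D-box factors, Tef had 237 and 389.9 at ZT0 and 1259 and 1354 at ZT6, a log2 fold change of 2.10 (SE 0.28), and just missed the threshold (limma adjusted p 0.0581). Nfil3, the repressor at the same sites, was lower, with 156 and 180.0 against 59.1 and 79.4 (log2 fold change -1.28, SE 0.41). Hlf was not among the genes tested.

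Of 9 auxiliary repressors and modifiers of clock proteins tested, 2 were higher at an unadjusted p under 0.05 (2.14% of all genes) and none lower (1.98% of all genes). Ciart, also called Chrono, which represses BMAL1 and CLOCK, had 14.9 and 18.7 normalised counts at ZT0 and 136 and 78.3 at ZT6 (log2 fold change 2.56, SE 0.43, limma adjusted p 0.259). Cipc, another repressor of CLOCK, had 1750.1 and 1952 against 3376 and 2963 (log2 fold change 0.77, SE 0.17). Timeless was lower without overlap (206 and 155 against 87.5 and 134). Bhlhe40, the casein kinase genes Csnk1d and Csnk1e, the ubiquitin ligase gene Btrc and the deubiquitinase gene Usp2 overlapped between the time points, with log2 fold changes from -0.04 for Csnk1d to 0.30 for Usp2. The signs of Csnk1d, Csnk1e, Btrc and Usp2 turned in at least 1 fit that left out a library.

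**Figure D3:**
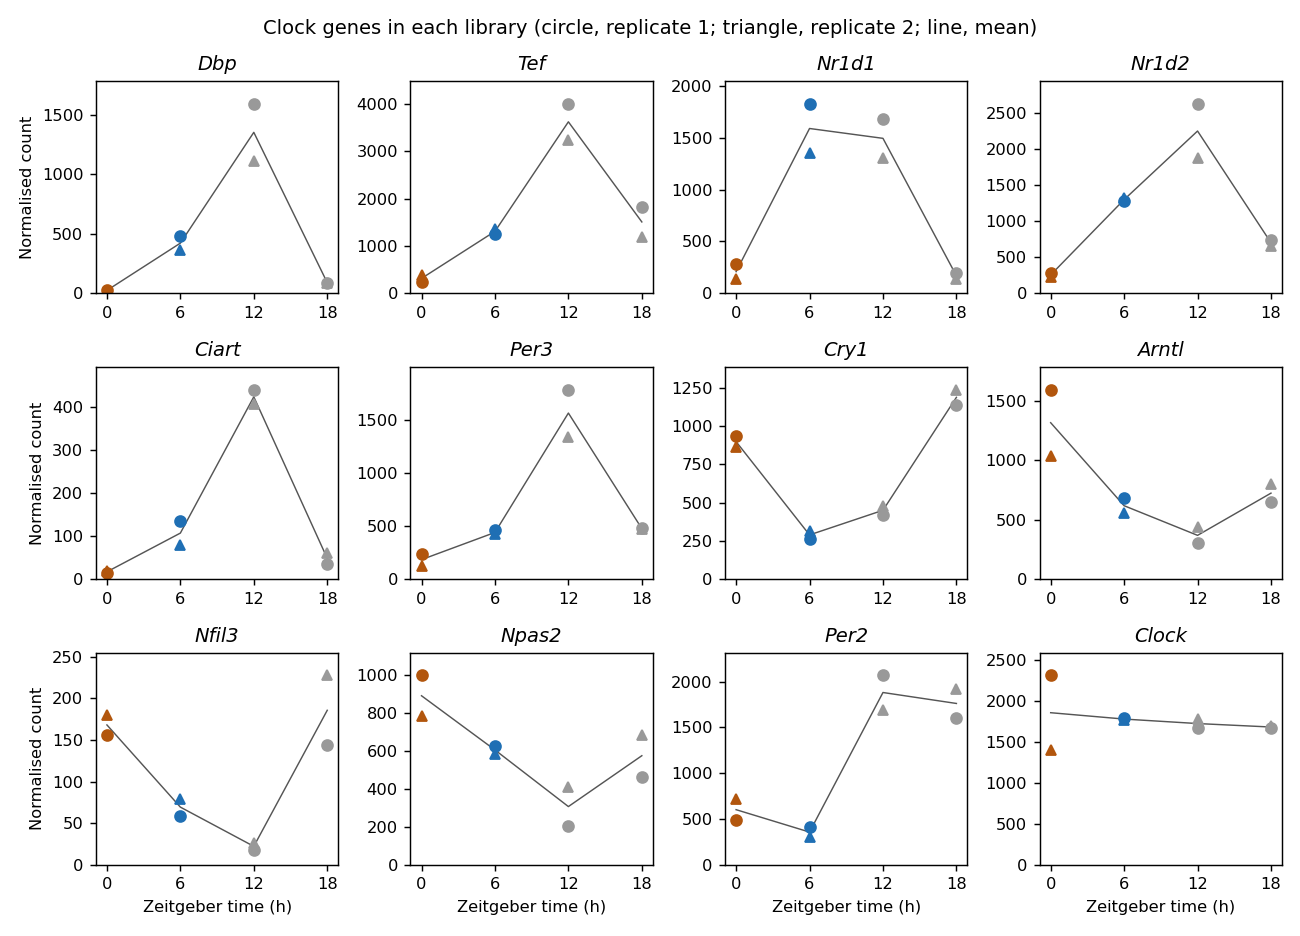
Normalised counts (y axis, from 0) of 12 clock genes at the 4 zeitgeber times (x axis, h), with 1 point per library, circles for replicate 1 and triangles for replicate 2; lines join the means. ZT0 is orange, ZT6 blue, and the later times grey. From ZT0 to ZT6, Dbp, Tef, Nr1d1, Nr1d2, Ciart and Per3 lay higher and Cry1, Arntl, Nfil3, Npas2 and Per2 lower without overlap, whereas the Clock libraries of ZT0 enclosed those of ZT6.

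Below the threshold, 119 further genes had a mean of at least 50 normalised counts, libraries that did not overlap, a log2 fold change of at least 1 in size and an unadjusted p under 0.05. Of these, 55 were higher and 64 lower at ZT6. Nos2, the inducible nitric oxide synthase gene, came closest to passing, with 14.9 and 11.2 normalised counts at ZT0 and 175 and 248 at ZT6 (log2 fold change 3.91, SE 0.51, limma adjusted p 0.0533). Both ZT0 libraries were low and both ZT6 libraries far above them. Slc15a2, an uptake transporter of small peptides, had 2.98 and 7.46 at ZT0, which are near the limit of 3 reads, and 262 and 112 at ZT6 (log2 fold change 4.89, SE 0.70, limma adjusted p 0.0943). The fructose transporter gene Slc2a5 had 8.94 and 33.6 against 99.8 and 89.2.

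Several of the other high genes had unequal ZT0 libraries. Of the 55, 14 had a ZT0 replicate 2 more than 2 times replicate 1, and thus nearer to ZT6, and 8 the reverse. Ncoa7, a gene of resistance to oxidation, had 169.8 and 523 normalised counts at ZT0 and 1294 and 1611 at ZT6. Abca12, a lipid transporter gene, had 150.0 and 614 against 1308 and 1266, and Sprr1a, a cornified envelope gene, 49.7 and 311 against 623 and 893. Grin3a, a glutamate receptor subunit gene, had 30.8 and 71.8 against 172 and 379.7, and the zinc finger gene Zfp947, with replicate 1 the higher one, 44.7 and 13.1 against 86.2 and 85.9. Without ZT0 replicate 1, 36 of the 55 kept a log2 fold change of at least 1, and without ZT0 replicate 2, 40 did.

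At the low end, 7 of the 10 genes with the lowest log2 fold change were highest in ZT0 replicate 2 among the 4 libraries of the step. Pax5, the B cell lineage factor, had 7.95 and 412 normalised counts at ZT0 and 0 and 6.53 at ZT6. H2-Ob, a chain of the complex that tunes class II peptide loading in B cells, had 12.9 and 383 at ZT0 and no read in either ZT6 library, which is at least 56.9-fold lower against a floor of 3 reads per library, a ratio set by 1 library. Fam124a, the adaptor gene Dok3, the lymphoid factor gene Ets1 and Msn, which encodes the membrane linker moesin, had from 26.8 to 40.7 in ZT0 replicate 1, from 160 to 218 in ZT0 replicate 2, and from 7.39 to 24.6 at ZT6. The B and plasma cell markers moved with these genes, as given above, and in bulk RNA fewer cells of a type and less RNA per cell cannot be told apart. Fam124a was also high at the later times (from 158 to 273), and Msn was at 151 in ZT12 replicate 1. The other 3 of the 10 were not highest in ZT0 replicate 2. Asf1b, a histone chaperone of replication, had 273 and 256 against 94.9 and 62.0 (log2 fold change -1.77, SE 0.34, limma adjusted p 0.466). Polq, a DNA repair polymerase gene, had 133 and 55.0 against 37.0 and 13.1, and the microtubule protein gene Map2 106 and 87.7 against 64.1 and 7.62. Without ZT0 replicate 2, 50 of the 64 lower genes kept a log2 fold change of -1 or below.

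The cell division genes were lower at ZT6 nearly throughout, although no single gene passed. Of 23 mitosis genes tested, 22 had a negative log2 fold change, 18 did not overlap in that direction (18.7% of all genes) and 11 had an unadjusted p under 0.05 (1.98% of all genes). The median of the list was -0.64, against 0.01 for all genes. Aurkb, the kinase of the chromosomal passenger complex, had 452 and 468 normalised counts at ZT0 and 279.7 and 209 at ZT6, a log2 fold change of -0.93 (SE 0.24, limma adjusted p 1). Cdk1, the kinase that starts mitosis, had 554 and 447 against 294 and 284 (-0.78, SE 0.22). Plk1 was the exception, with 1659 and 2365 against 2550.3 and 2498. Relative to the mean of the 8 libraries, the median of the list stood at 0.74 and 0.45 in the ZT0 libraries and 0.12 and -0.21 in the ZT6 libraries (log2), so that the groups did not overlap.

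The DNA replication genes lay on the same side, with 23 of 24 lower, 16 without overlap (18.7% of all genes) and 6 at an unadjusted p under 0.05 (1.98% of all genes), and the median log2 fold change was -0.38. Pola1, the catalytic subunit of the primase polymerase, had 258 and 149 normalised counts at ZT0 and 91.2 and 76.2 at ZT6 (log2 fold change -1.23, SE 0.33). Rrm2, a subunit of ribonucleotide reductase, had 289 and 319.9 against 179 and 119 (-1.06, SE 0.29). Ccne2, the only member with a positive value (0.47), had 25.8 and 114 against 64.1 and 89.2, and turned to -0.58 without ZT0 replicate 1. The median of the list relative to the 8 libraries was 0.26 and 0.00 in the ZT0 libraries and -0.38 and -0.28 in the ZT6 libraries, again without overlap. Markers of stem and proliferating cells, which share genes with these lists, summed to 9831 and 7946 at ZT0 and 7427 and 6049 at ZT6. Of these 8 markers, 5 were lower and 3 higher, with a median log2 fold change of -0.14. The stem cell gene Lgr5 was among the higher ones (90.4 and 59.7 against 145 and 102). Relative to the 8 libraries, the median of the markers overlapped, at 0.35 and -0.11 at ZT0 and 0.16 and -0.14 at ZT6.

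Chaperone genes were also lower at ZT6. Of 18 heat shock chaperones tested, 17 had a negative log2 fold change, 12 did not overlap (18.7% of all genes) and 5 had an unadjusted p under 0.05 (1.98% of all genes), with a median of -0.34. None passed. Hsph1, a large stress chaperone of the HSP110 family, had 675 and 1081 normalised counts at ZT0 and 291 and 307 at ZT6 (log2 fold change -1.51, SE 0.26, limma adjusted p 0.259), well apart in both pairs. Stip1, the co-chaperone that links HSP70 to HSP90, had 1139 and 1277 against 759 and 794 (-0.63, SE 0.17). Hspb1 was at or below 17.2 in all 4 libraries and at 0 in ZT0 replicate 1. Genes of the unfolded protein and integrated stress response were lower in 14 of 19 cases, 10 without overlap (18.7% of all genes) and 3 at an unadjusted p under 0.05 (1.98% of all genes), with a median of -0.12 and none that passed. The chaperones of the endoplasmic reticulum led them: Hspa5, which encodes BiP, had 8428 and 7099 against 5356 and 5128 (-0.56, SE 0.18), and Hyou1 had 1624 and 1465 against 962 and 878 (-0.75, SE 0.24). Atf4 and Dnajb9 overlapped, with log2 fold changes of 0.07 and 0.19.

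In the opposite direction, cholesterol synthesis genes were higher at ZT6. Of 22 tested, 19 had a positive log2 fold change, 16 did not overlap (18.9% of all genes) and 8 had an unadjusted p under 0.05 (2.14% of all genes), with a median of 0.59. Lss, which encodes lanosterol synthase, had 586 and 669.7 normalised counts at ZT0 and 1117 and 1593 at ZT6 (log2 fold change 1.09, SE 0.27, limma adjusted p 1). Mvd, a decarboxylase of the mevalonate pathway, had 808 and 978 against 1497 and 1808 (0.89, SE 0.24). The late enzymes Ebp and Dhcr7 overlapped, with -0.04 and -0.02. Relative to the 8 libraries, the median of the list was -0.08 and -0.52 at ZT0 and 0.06 and 0.43 at ZT6. The median log2 fold change was 0.81 without ZT0 replicate 1 and 0.32 without ZT0 replicate 2. In contrast, the fatty acid synthesis list had a median of 0.05, and its lowest p-values belonged to 2 desaturase genes that were lower, Fads1 (343 and 439 against 158 and 164, log2 fold change -1.26, SE 0.24, limma adjusted p 0.466) and Scd1 (959 and 1116 against 579 and 674, -0.73). The elongase genes Elovl1 and Elovl6 had log2 fold changes of 0.52 and 0.43.

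Interferon-stimulated genes, which are induced by antiviral signals, were higher in 20 of 22 cases, 15 without overlap (18.9% of all genes) and 4 at an unadjusted p under 0.05 (2.14% of all genes), with a median of 0.58. None passed, and Ddx60, described above, is not in this list. Ifit1, an effector that binds viral RNA, had 533 and 932 normalised counts at ZT0 and 1287 and 1910.3 at ZT6 (1.15, SE 0.39). Bst2 and Gbp2 overlapped, with -0.18 and -0.07. The median of the list relative to the 8 libraries was -0.77 and -0.34 at ZT0 and -0.11 and 0.26 at ZT6, and the gap between libraries of 1 time point was of similar size as the gap between the time points.

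Genes of energy and xenobiotic metabolism had smaller positive medians, and their shares without overlap lay nearer to that of all genes (18.9% without overlap and 2.14% at an unadjusted p under 0.05, higher). Fatty acid oxidation and ketogenesis genes were higher in 18 of 21 cases (6 without overlap, 2 at an unadjusted p under 0.05, median 0.27), with Acadl, an acyl-CoA dehydrogenase gene, at 1798 and 1905 against 2688 and 2527 normalised counts and the carnitine carrier gene Slc25a20 at 3195 and 3473 against 4547 and 4185. Xenobiotic metabolism genes were higher in 19 of 24 (6 without overlap, 1 at an unadjusted p under 0.05, median 0.39), among them Cyp3a13 (3544 and 2627 against 4554 and 4111) and Sult1c2 (377 and 381 against 488 and 586). Both medians rested on ZT0 replicate 1, and without it they were 0.03 and 0.07. Of 12 mitochondrially encoded genes, 10 were higher, 9 without overlap (18.9% of all genes) and 1 at an unadjusted p under 0.05 (2.14% of all genes), with a median of 0.53, which was 0.21 without ZT0 replicate 1, and the mitochondrial share given above was low in ZT0 replicate 1.

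Among colonocyte transport genes the median was 0.12 and 12 of 18 were higher, 2 at an unadjusted p under 0.05 (2.14% of all genes). A pair of genes of sodium uptake had higher levels in both ZT6 libraries. Slc9a3, the apical sodium/proton exchanger, had 4386 and 4351 normalised counts at ZT0 and 7773 and 8096 at ZT6 (log2 fold change 0.86, SE 0.19, limma adjusted p 0.842). Scnn1b, a subunit of the epithelial sodium channel, had 102 and 113 against 291 and 174 (1.06, SE 0.32). Sgk1, the kinase that promotes sodium uptake downstream of corticosteroids, was lower, with 3759.5 and 4285 against 2622 and 2832 (-0.56, SE 0.24). The glucocorticoid targets as a list had a median of 0.11 with 9 of 15 higher. On each side 1 gene had an unadjusted p under 0.05 (2.14% of all genes higher and 1.98% lower). Klf9 had 1315 and 917 against 1492 and 1568, and Tsc22d3, which encodes GILZ, 1467 and 958 against 848 and 731.

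Defence genes lay on both sides (9 of 16 higher, median 0.11). On each side 1 gene had an unadjusted p under 0.05 (2.14% of all genes higher and 1.98% lower), the higher one being Nos2. Zg16, a lectin of the mucus layer, had 27654 and 25388 normalised counts at ZT0 and 42225 and 38934 at ZT6 (log2 fold change 0.61, SE 0.29). The lower one, Lyz1, had 5.96 and 169.8 against 0 and 2.18, and it may share reads with its near copy Lyz2. All 8 MHC class II genes were lower, with a median of -1.27, but only 1 of them did not overlap (18.7% of all genes), H2-DMb2, at 4.97 and 206 against 0 and 2.18. This median was 0.29 without ZT0 replicate 2, the library with high B cell and myeloid markers, and -3.10 without ZT0 replicate 1. The cold-inducible genes Cirbp (609 and 538 against 793 and 764) and Rbm3 (956 and 1272 against 1237 and 1257) had log2 fold changes of 0.44 and 0.18.

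Other lists lay near the centre. In the lists of crypt stem cell and Wnt target genes (14 tested, median 0.04), goblet cell genes (14, -0.04), enteroendocrine genes (14, 0.16), immediate early genes (18, -0.13), NAD salvage and sirtuin genes (15, 0.03), the BCL2 family (17, -0.09), p53 and its targets (21, 0.07), autophagy and lysosome genes (26, 0.03) and tight junction genes (16, 0.08), no gene had an unadjusted p under 0.05. Of all genes, 4.13% had such a p-value. The enteroendocrine median depended on single libraries, at -0.36 without ZT0 replicate 1 and 0.66 without ZT0 replicate 2. Its members lay between -0.67 and 2.91. Members of the BCL2 family, which govern apoptosis, lay between -0.41 and 0.51, and those of the autophagy and lysosome list between -0.34 and 0.31. The 10 widely rhythmic output genes lay lower, with a median of -0.40. Of them, 5 were lower without overlap (18.7% of all genes) and 1, Sgk1, was lower at an unadjusted p under 0.05 (1.98% of all genes).

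**Figure D4:**
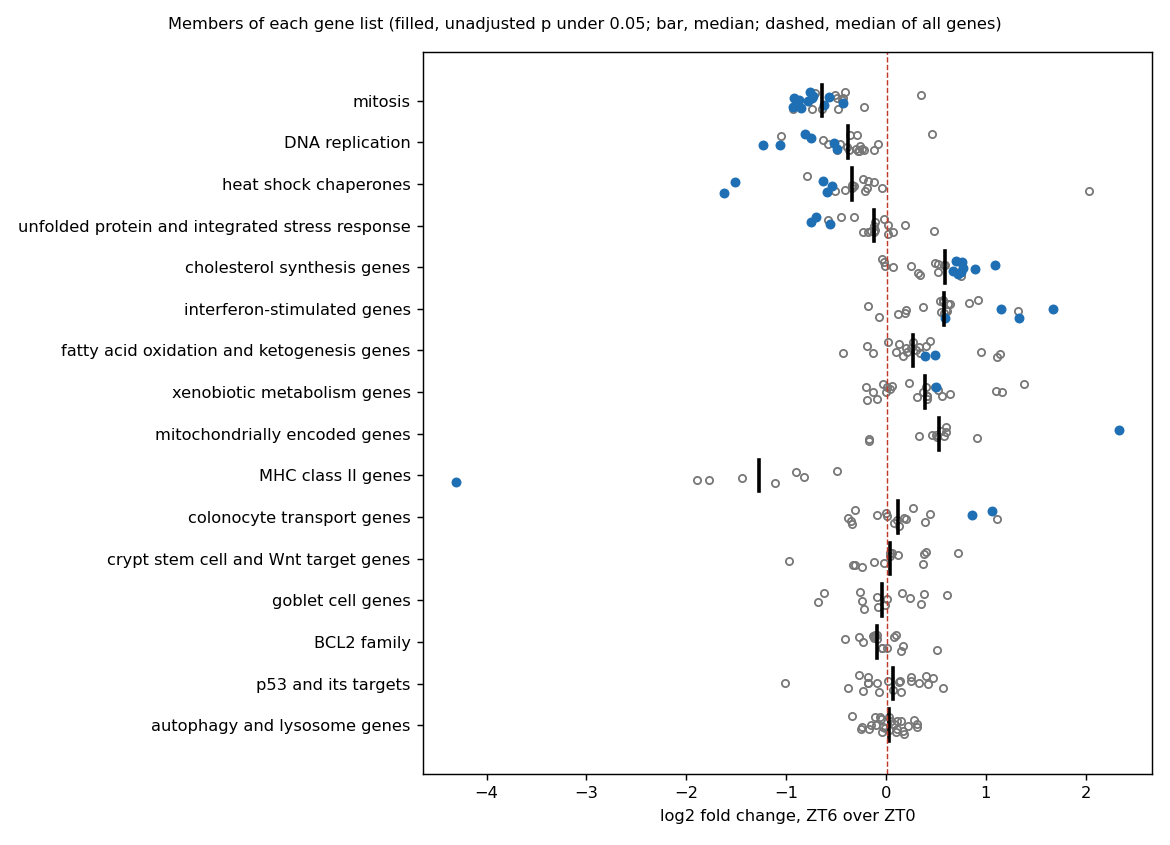
Log2 fold change from ZT0 to ZT6 (x axis, log2 units) of each member of 16 gene lists (y axis), with 1 circle per gene, filled where the unadjusted limma p was under 0.05. Black bars are list medians and the dashed line is the median of all 13503 genes; vertical scatter within a list has no meaning. The mitosis, DNA replication and heat shock lists lie to the left, cholesterol synthesis and interferon-stimulated genes to the right, and the last lists around 0.

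The step was compared with the step of equal length in the dark, from ZT12 to ZT18, which shares no library with it. This difference sets ZT6 and ZT12 against ZT0 and ZT18. A gene that passed thus need not have changed only, or most, in the light. The libraries of the dark step were unequal too. In ZT12 replicates 1 and 2, fibroblast markers summed to 3280 and 227, smooth muscle markers to 3871 and 236, and B and plasma cell markers to 1484 and 189. Myeloid markers were alike there, at 1443 and 1310. The mitochondrial share was 22.2% and 9.80% in ZT18 replicates 1 and 2. The part of these differences in the results was not tested beyond fits that left out each library. The difference of both steps passed for 13 genes (limma adjusted p under 0.05, 0.0963% of the genes tested, with 8.81% at an unadjusted p under 0.05). Of the 6 genes that passed in the light, 5 passed here too, and both tests use the same ZT0 and ZT6 libraries. Ddx60 did not pass, with a difference of 1.24 (limma adjusted p 0.332) and log2 fold changes of 1.60 in the light and 0.36 in the dark. Dbp differed most, with 4.06 in the light and -3.89 in the dark (limma adjusted p of the difference 0.000164). Both steps had opposite signs in all 13 genes: 9 were higher at ZT6 than at ZT0 and lower at ZT18 than at ZT12, and 4 the reverse. Selecting genes by the size of this difference favours opposite signs, so the signs are no separate result. Of the 13, 9 were clock genes. The other 4 were Ccdc116, the lincRNA gene Gm42047, which overlaps Gm20388 on the same strand, Tns4, which encodes a tensin of focal adhesions, and Tppp3, which encodes a tubulin-binding protein. At the 4 time points in order, the normalised counts of Tppp3 were 3216 and 1961, then 1031 and 629.9, then 478 and 800.1, and last 5483 and 2998, so that it was high at ZT0 and ZT18. Those of Tns4 were 3623 and 3672, then 9132 and 7132, then 9143 and 7258, and last 4258 and 3214, so that it was high at ZT6 and ZT12. The number of such genes ran from 1 without the mean-variance trend to 105 with DESeq2.

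**Figure D5:**
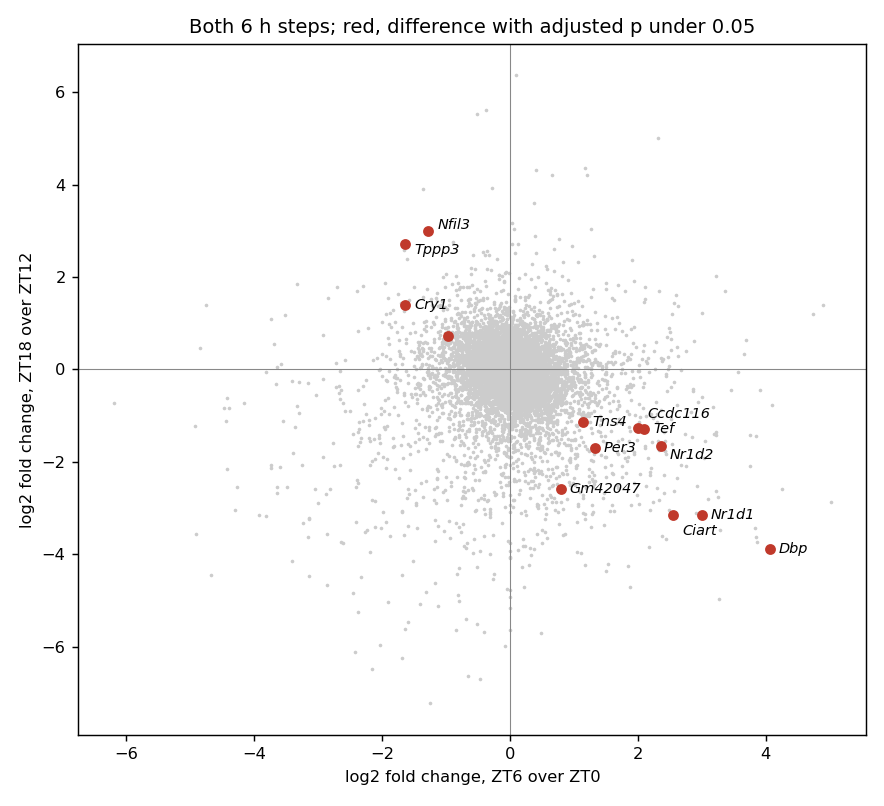
Log2 fold change from ZT0 to ZT6 (x axis) against that from ZT12 to ZT18 (y axis) for the genes tested, 1 point per gene. The 13 genes whose steps differed (limma adjusted p under 0.05) are red, with names for 12, and all of them lie in the upper left or lower right of the plot, with Dbp at 4.06 and -3.89.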

How the data were processed

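Per the labels and the methods of the study, colonic crypts were sequenced, and the authors aligned the reads with STAR to GRCm38 and processed them with DESeq2. The gene annotation, the counter and strand use are not given in the sources used here, and the labels and the methods name different library kits. The deposited signal of each library is a normalised count, the read count divided by 1 size factor. Whole reads were recovered (100% of values within 0.01 read in each library). The authors' own contrast columns (log2 fold change with its error, the test score, and p-values before and after adjustment, for a contrast that the header does not name) were not used. Captions give 3 mice per time point, and 2 libraries were analysed here.

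On log2(normalised count + 1), limma 3.58.1 (R 4.3.3; lmFit, eBayes with a mean-variance trend) fitted all 8 libraries with a mean per time point, and the contrasts ZT6 minus ZT0 and (ZT6 minus ZT0) minus (ZT18 minus ZT12) were tested with Benjamini-Hochberg adjustment over 13503 genes (threshold 0.05). The code was tested on simulated data. Lists were described by counts and medians only. Gene positions and overlaps are from GENCODE M21, which held 14244 of the 14247 identifiers. Promoter windows are from RefSeq. The genes, lists and rules were chosen with earlier results of these data known. Named were all genes that passed, the clock genes, among genes with a mean of at least 50, libraries that did not overlap, a log2 fold change of at least 1 in size and an unadjusted p under 0.05 the 10 highest and 10 lowest, and the genes with the lowest p-values on each side in the lists described singly; for lists near 0 counts and ranges are given. The values of a few genes under this rule are not reported here, although they count in the totals. Alternatives were edgeR 4.0.16 and DESeq2 1.42.0 on recovered reads, other scalings, filters, pseudocounts and eBayes settings, a replicate block, and each library left out. A count of 0 allows up to 3 reads, for counting error only.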

Additional observations from a re-analysis of the deposited data

Results flagged for a closer look

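The change from ZT0 to ZT6 differed from the change from ZT12 to ZT18 for 13 genes, by a test of the difference itself (limma adjusted p under 0.05). Values are differences of log2 fold changes, light step minus dark step, and are given for 12 of the 13. Among genes that went up in the light and down in the dark, the difference was 7.95 for Dbp (limma adjusted p 0.000164), 6.14 for Nr1d1 (0.00198), 5.72 for Ciart (0.0134), 4.02 for Nr1d2 (0.00192), 3.39 for Tef (0.0227), 3.39 for Gm42047 (0.0358), 3.27 for Ccdc116 (0.00533), 3.03 for Per3 (0.0458) and 2.28 for Tns4 (0.0432). Among genes that went down in the light and up in the dark, it was -4.35 for Tppp3 (0.0358), -4.28 for Nfil3 (0.0434) and -3.04 for Cry1 (0.00347).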

How the results depend on the processing

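Of 1718 values of the 82 named genes under 21 alternatives, 1697 kept the direction reported and 21, in 15 genes, did not; of 630 list medians, 608 moved by less than the spread between replicates and 22 by more. DESeq2 called 25 genes for the step and 105 for the difference of steps, and edgeR called 6 for the latter. Without the mean-variance trend 0 and 1 were called (0 for the step, where 614 had an unadjusted p under 0.05), and with the 4 libraries alone 0 (878 at an unadjusted p under 0.05), for which no difference of steps could be fitted. Deviations of same-numbered libraries of ZT0 and ZT6 had a correlation of 0.04 over genes, and other pairs of time points were not checked. With the replicate block 3 genes were called for the step. Leaving out 1 library gave from 0 to 9 called genes for the step (0 without ZT0 replicate 2, ZT6 replicate 1 or ZT6 replicate 2, where 766, 229 and 263 had an unadjusted p under 0.05, 8 without ZT0 replicate 1, 2 without either ZT12 library and 9 without either ZT18 library) and from 3 (without ZT6 replicate 1) to 16 (without ZT0 replicate 1) for the difference of steps, and the lone library of a group is assumed to vary like the others. The cause was not tested. TMM, quantile scaling, other pseudocounts, another filter or none, the robust setting and non-mitochondrial scaling kept from 6 to 8 calls for the step.

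The log2 fold changes of 15 genes turned sign, and most were near 0, but Hspb1 was at 2.03 and Ccne2 at 0.47. Over fits that left out 1 library, Clock ranged from -0.38 (without ZT0 replicate 2) to 0.35 (without ZT0 replicate 1). The range was -0.0897 to 0.48 for Per1, -0.30 to 0.21 for Cry2 and -0.0885 to 0.000105 for Csnk1d. It was -0.46 to 0.45 for Csnk1e (0.00898 with quantile scaling), -0.0173 to 0.31 for Btrc and -0.10 to 0.71 for Usp2. For Ccne2 it was -0.58 to 1.51, for Hspb1 -0.0478 to 4.11 and for Atf4 -0.0907 to 0.23. Ebp ranged from -0.16 to 0.0758, Dhcr7 from -0.16 to 0.12 and Bst2 from -0.63 to 0.28. Gbp2 ranged from -0.62 to 0.49 and Rbm3 from -0.0293 to 0.38. In windows that also hold the first 50 transcribed bases the motif shares were higher: those of the 250 upstream bases were 6.02% for CACGTG, 0.819% for TTATGTAA, 2.23% for TAGGTCA, 3.24% for TGGGTCA, 1.55% for TGACGTCA, 0.387% for the glucocorticoid element and 0.466% for the heat shock element. With 3 reads per library as a limit, levels under about 4 normalised counts cannot be told from 0.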

Other observations

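The unequal ZT0 libraries were followed further in genes chosen after their values were seen. In 137 genes with a mean of at least 50 normalised counts, the ZT0 libraries differed by at least 2 on the log2 scale while the ZT6 libraries differed by less than 1. Of these, 119 were higher in ZT0 replicate 2. In 77 of the 119 the ZT6 libraries lay nearer to ZT0 replicate 2, and in 42 nearer to ZT0 replicate 1. Among the first kind, Car1, a carbonic anhydrase gene, had 25770 and 126760 normalised counts at ZT0 and 105999 and 143331 at ZT6, and Aldh1a1, a retinoic acid synthesis gene, 680 and 4413 against 3995 and 5136. The first kind also held lymphoid genes such as Lck. Among the second kind were the immunoglobulin gene Ighm (4.97 and 918 against 7.39 and 15.2), the stromal gene Dcn and the lysozyme gene Lyz2 (0 and 1048 against 22.2 and 25.0). In the later libraries, ZT18 replicate 1 resembled ZT0 replicate 1 in the genes named here for position: Hoxb8, Hoxb4 and Hoxd4 had no read in it, and Slc51a had 5.13 normalised counts, whereas ZT18 replicate 2 had 332, 163, 212 and 2332.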
